A study of Mus musculus with 6 samples.

Results

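The genes described here are 10 receptors of sinusoidal endothelium and of scavenger cells, Stab1, Stab2, Mrc1, Lyve1, Fcgr2b, Il6st, Sele, Scarb1, Msr1 and Marco. They were chosen by name, and all 10 were found among the 37991 genes of the deposited table. BECs are bone endothelial cells, taken fresh from the tibia of 12-week c57/Bl6 mice by their endomucin, a surface sialomucin of capillary and venous endothelium, and the groups are 3 female and 3 male libraries with no further treatment or genotype. The study's methods name the femur beside the tibia and keep, for each set, the samples of best RNA quality, so the libraries are a selected subset. The question is whether the transcripts of these receptors differ between the libraries labelled as female and as male BECs.

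The sinusoids of bone marrow are wide, thin-walled vessels whose endothelium takes up spent macromolecules from the blood. Scavenger receptors on these cells, and on the macrophages that lie beside them, bind modified lipoproteins, hyaluronan, mannose-ended glycoproteins and immune complexes and carry them to the lysosome. Several receptors are shared by both cell types, so in RNA of a whole preparation their transcripts cannot be assigned to either.

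In 8 of the 10 receptors the estimate was lower in males, and in 5 of them, Marco, Stab2, Mrc1, Stab1 and Scarb1, every male library lay below every female library. The median log2 fold change of male over female was -0.54 over the 10 receptors and 0.00 over the 19480 genes tested. Marco was at 25.4% of its female mean in males, Stab2 at 61.9% and Mrc1 at 64.4%. Msr1, a close relative of Marco, had a higher mean in males, 116% of the female mean, with overlapping libraries. No receptor passed an adjusted p of 0.05 over all genes tested in edgeR's quasi-likelihood test, in which 0.0411% of genes passed. At an unadjusted p under 0.05 in the same test, 7 of the 10 receptors were lower and 0 higher in males, where 4.76% of all genes tested were lower. Males lay wholly below females in 7.29% of all genes tested. DESeq2's Wald test, the tool named in the study's methods, called 4 of the 10, all lower in males, where 0.771% of the genes with an adjusted p were called lower.

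The 6 libraries held between 47678806 and 58325745 counts, and 3 counts correspond to between 0.0477 and 0.0639 CPM, the counts scaled to library size after TMM normalization. The labelled cell type was checked against 15 endothelial markers, all of which had counts, as did the markers of macrophages, neutrophils, erythroid cells and B cells, so the libraries do not hold RNA of endothelial cells alone. Emcn, the gene of the endomucin used for isolation, had between 5.35 and 10.5 CPM in females and between 3.09 and 6.73 CPM in males. The summed level of the endothelial markers lay between 244 and 376 CPM in females and between 161 and 232 CPM in males. The 12 macrophage markers summed to between 4731 and 5267 CPM in females and between 3144 and 4259 CPM in males. The 12 neutrophil markers summed to between 18992 and 23244 CPM in females and between 32324 and 44062 CPM in males, and the 7 erythroid markers to between 11952 and 17122 CPM and between 18263 and 26758 CPM. None of these 4 sums overlapped between the sexes. In RNA of whole preparations, fewer cells of a type and less RNA per cell cannot be told apart, and cell makeup and sex cannot be told apart in these groups. Nothing in the labels says which libraries share an animal or a day, so the p-values measure only the spread between these libraries.

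Promoter sequences are shown for Marco, Mrc1 and Stab1, which lay lower in every male, and for Sele, because these 4 held a match of a searched motif. RefSeq promoters on GRCm38.p6, from 250 bases before to 50 bases after the start of the gene, were matched for 7 of the 10 receptors, and those of Lyve1, Scarb1 and Msr1 were not matched. Capitals mark the matches of 6 motifs searched on both strands: GAGGAA, the core bound by the myeloid factor PU.1, AGATAA for GATA factors, TGCTGA for MAF factors, TGANTCA for AP-1, CACGTG for the MiT/TFE factors of lysosome genes, and GGGANTTCC for NF-kB. These lines read 5′ to 3′ on the strand of the gene, Marco at chr1:120504975-120505274 (minus strand), Mrc1 at chr2:14229164-14229463 (plus strand), Stab1 at chr14:31168592-31168891 (minus strand) and Sele at chr1:164047984-164048283 (plus strand).
Marco: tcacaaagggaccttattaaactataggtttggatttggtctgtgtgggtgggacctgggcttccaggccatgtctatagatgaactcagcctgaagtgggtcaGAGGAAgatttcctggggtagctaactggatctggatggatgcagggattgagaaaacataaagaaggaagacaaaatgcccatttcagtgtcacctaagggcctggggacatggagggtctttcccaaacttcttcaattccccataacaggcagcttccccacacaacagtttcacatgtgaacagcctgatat
Mrc1: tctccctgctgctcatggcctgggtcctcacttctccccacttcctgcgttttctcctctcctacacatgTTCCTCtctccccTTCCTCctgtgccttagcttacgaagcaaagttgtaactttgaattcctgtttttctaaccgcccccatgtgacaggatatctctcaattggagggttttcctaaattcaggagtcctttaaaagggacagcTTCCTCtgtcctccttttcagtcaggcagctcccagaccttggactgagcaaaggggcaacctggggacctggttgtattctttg
Stab1: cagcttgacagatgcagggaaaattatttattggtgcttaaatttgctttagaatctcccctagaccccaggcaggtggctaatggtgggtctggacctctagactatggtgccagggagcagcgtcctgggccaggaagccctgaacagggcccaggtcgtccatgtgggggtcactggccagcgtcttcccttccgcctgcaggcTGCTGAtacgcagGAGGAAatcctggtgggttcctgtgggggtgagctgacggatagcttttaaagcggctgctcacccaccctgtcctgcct
Sele: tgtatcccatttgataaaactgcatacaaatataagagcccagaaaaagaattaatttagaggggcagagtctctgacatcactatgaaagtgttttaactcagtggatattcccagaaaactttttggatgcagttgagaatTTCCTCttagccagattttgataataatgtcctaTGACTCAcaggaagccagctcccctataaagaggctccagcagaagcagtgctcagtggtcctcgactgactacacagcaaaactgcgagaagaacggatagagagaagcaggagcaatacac

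GAGGAA was found in 4 of the 7 promoters and in 28.1% of all 32544 promoters of this length. In Marco it began at position -146 relative to the start of the gene, in Stab1 at -30 and in Sele, on the other strand, at -107. Mrc1 held it 3 times on the other strand, at -180, -167 and -35. TGCTGA, in 19.5% of all promoters, was found in Stab1 at -43, and TGANTCA, in 7.79%, in Sele at -73. The letters AGATAA (11.2% of all promoters), as well as CACGTG (7.17%) and GGGANTTCC (1.69%), were found in 0 of the 7. A match describes these letters in this window and was not tested as a binding site.

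**Figure D1:**
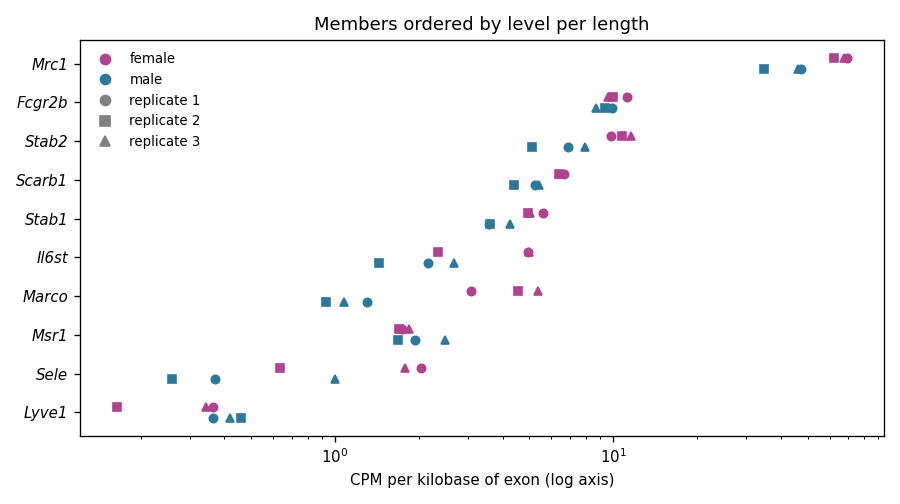
Level of the 10 receptors in each library as CPM per kilobase of exon (log axis), ordered by the mean of the 6 libraries, with females in purple and males in blue and 1 symbol for each replicate number. Mrc1 lay apart at the top, with every library at or above 34.7, while neighbouring receptors below it overlapped.

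Per kilobase of exon, the scale on which genes can be compared, Mrc1 had the highest level, with a mean of 54.7 CPM per kilobase over the 6 libraries. It was followed by Fcgr2b with 9.79, Stab2 with 8.66, Scarb1 with 5.75 and Stab1 with 4.51 CPM per kilobase. The lower levels were those of Il6st with 3.09, Marco with 2.72, Msr1 with 1.90, Sele with 1.01 and Lyve1 with 0.352 CPM per kilobase. The lowest library of Mrc1, at 34.7, lay above the highest library of Fcgr2b, at 11.2 CPM per kilobase. From Fcgr2b to Lyve1, the ranges of every pair of neighbours in this order overlapped. Within every single library, Stab2 still lay above Scarb1, Scarb1 above Stab1 and Stab1 above Il6st. The other neighbours below Mrc1 changed places between libraries. The order of the means also changed with sex. In females Stab2 (10.7) had a higher mean than Fcgr2b (10.3) and Marco (4.33) than Il6st (4.09). In males Msr1 (2.03) had a higher mean than Marco (1.10). Exon lengths are those of GENCODE M39 on GRCm39 and may differ from the gene models the authors counted on.

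**Figure D2:**
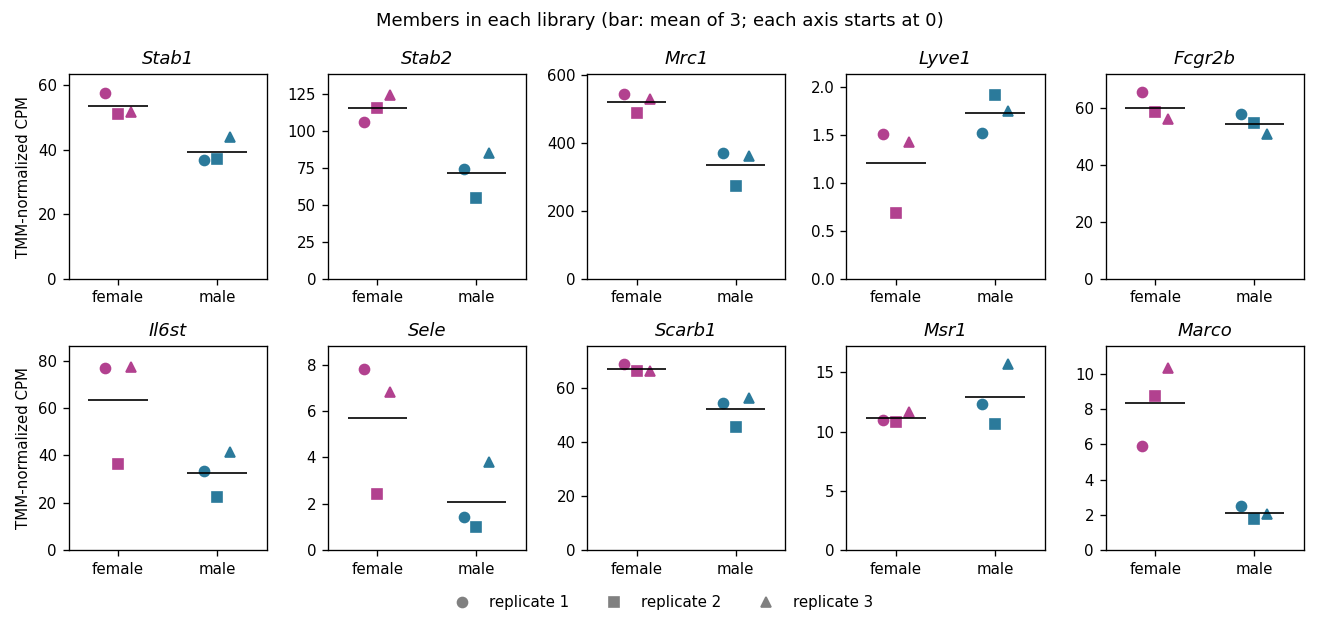
TMM-normalized CPM of each receptor in each library (points, 1 symbol for each replicate number) with the mean of each sex (bar), every axis starting at 0. The male libraries lie wholly below the female libraries for Stab1, Stab2, Mrc1, Scarb1 and Marco, and overlap them for Fcgr2b, Il6st, Sele and Msr1.

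Marco (ENSMUSG00000026390) encodes a trimeric class A scavenger receptor of resident macrophages that binds bacteria and particles, and lies on chromosome 1 of GRCm39 from 120402267 to 120432753. Its level was 5.92, 8.78 and 10.3 CPM in female replicates 1, 2 and 3 and 2.51, 1.79 and 2.07 CPM in male replicates 1, 2 and 3. The highest male library lay below the lowest female library, and the males differed little among themselves. These levels rest on between 88 and 485 counts a library. The female mean was 8.34 ± 2.24 CPM (SD, n = 3) and the male mean 2.12 ± 0.363 CPM (SD, n = 3). Between males and females Marco differed by a log2 fold change of -1.97 with a standard error of 0.27 and an adjusted p of 0.0532 in edgeR's quasi-likelihood test, the ninth smallest p among the genes tested. Adjusted p over the alternative fits lay between 3.08e-09, with DESeq2, and 0.275. In edgeR it was 0.00239 with the replicate number as a block, 0.00499 without a filter on low counts and 0.0496 with total counts alone. It was 0.0227 without female replicate 1 and 0.0452 without male replicate 3. The log2 fold change stayed between -2.16 and -1.79 whichever library was left out.

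Msr1 (ENSMUSG00000025044) encodes the class A scavenger receptor of macrophages that takes up modified low-density lipoprotein, and lies on chromosome 8 from 40034726 to 40095714. Its level was 11.01, 10.8 and 11.7 CPM in the females and 12.3, 10.6 and 15.7 CPM in the males. Male replicate 2 was the lowest of the 6 libraries and male replicate 3 the highest, so the sexes overlapped. Its estimate was a log2 fold change of 0.21 with a standard error of 0.18 and an adjusted p of 0.751 in edgeR's quasi-likelihood test. Across all fits its adjusted p was at least 0.652, and without male replicate 3 the estimate was 0.04.

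Stab2 (ENSMUSG00000035459) encodes stabilin-2, the clearance receptor for hyaluronan on sinusoidal endothelium, and lies on chromosome 10 from 86675054 to 86843889. It had 106, 116 and 124 CPM in female replicates 1, 2 and 3 and 74.2, 54.7 and 84.9 CPM in male replicates 1, 2 and 3. All male libraries lay below all female libraries, with male replicate 2 the lowest. The means were 115 ± 9.23 CPM (SD, n = 3) in females and 71.3 ± 15.3 CPM (SD, n = 3) in males, and the log2 fold change was -0.69 with a standard error of 0.16 and an adjusted p of 0.175 in edgeR's quasi-likelihood test. The adjusted p was 0.0107 with DESeq2. In edgeR it was 0.0121 with the replicate number as a block, 0.0455 without male replicate 3 and up to 0.593 in the other fits.

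Stab1 (ENSMUSG00000042286) encodes stabilin-1, which binds modified lipoproteins and the matrix protein SPARC on sinusoidal endothelium and on macrophages, and lies on chromosome 14 from 30860970 to 30890598. Its level was 57.6, 51.0 and 51.8 CPM in the females and 36.8, 37.2 and 43.8 CPM in the males. The sexes did not overlap, and the spread within each sex was small, 3.63 CPM (SD, n = 3) around 53.5 CPM in females and 3.96 CPM (SD, n = 3) around 39.3 CPM in males. For Stab1 the log2 fold change came to -0.45 with a standard error of 0.12 and an adjusted p of 0.244 in edgeR's quasi-likelihood test, and the smallest adjusted p over all fits was 0.0658. An exon of Nt5dc2 overlaps Stab1 on the opposite strand and one of Gm16268 overlaps Stab2. Whether reads were counted by strand is not given in the sources used here, so shared reads are possible in both.

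Mrc1 (ENSMUSG00000026712) encodes the mannose receptor, which clears glycoproteins with exposed mannose and is found on macrophages and on sinusoidal and lymphatic endothelium, and lies on chromosome 2 from 14234151 to 14336926. It had 544, 488 and 529 CPM in the females and 372, 272 and 363 CPM in the males. The male libraries all lay below the female ones, and male replicate 2 was the lowest, as it was for Stab2. Mrc1 had an estimated log2 fold change of -0.63 with a standard error of 0.15 and an adjusted p of 0.185 in edgeR's quasi-likelihood test. DESeq2 gave an adjusted p of 0.00561, and the highest value over all fits was 0.784.

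Scarb1 (ENSMUSG00000037936) encodes SR-BI, the receptor from which cells take cholesterol esters of high-density lipoprotein, and lies on chromosome 5 from 125353547 to 125418176. The females had 68.8, 66.0 and 66.2 CPM and the males 54.2, 45.6 and 56.0 CPM. The female libraries lay close together and all males lay below them. For Scarb1 the log2 fold change came to -0.37 with a standard error of 0.12 and an adjusted p of 0.334 in edgeR's quasi-likelihood test, and the smallest adjusted p over all fits was 0.110.

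Il6st (ENSMUSG00000021756) encodes gp130, the signalling subunit shared by the receptors of interleukin-6, leukaemia inhibitory factor and related cytokines, and lies on chromosome 13 from 112600604 to 112646620. Its level was 76.9, 36.3 and 77.4 CPM in female replicates 1, 2 and 3 and 33.4, 22.3 and 41.4 CPM in male replicates 1, 2 and 3. Female replicate 2 lay below male replicate 3, so the sexes overlapped through that library. The log2 fold change was -0.97 with a standard error of 0.31 and an adjusted p of 0.356 in edgeR's quasi-likelihood test, DESeq2 gave an adjusted p of 0.0246, and the fits ranged from 0.00158 to 0.98. Leaving out single libraries moved its log2 fold change between -1.25 and -0.76.

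Sele (ENSMUSG00000026582) encodes E-selectin, the endothelial adhesion molecule on which leukocytes roll, which marrow vessels carry at rest, and lies on chromosome 1 from 163867401 to 163886055. Its level was 7.84, 2.42 and 6.84 CPM in the females and 1.42, 0.995 and 3.82 CPM in the males. These levels rest on between 49 and 493 counts a library. Female replicate 2 was again low and male replicate 3 high, and the sexes overlapped between them. For Sele the estimate was -1.46 on the log2 scale with a standard error of 0.55 and an adjusted p of 0.423 in edgeR's quasi-likelihood test, and it lay between -2.24 and -1.12 with each library left out in turn. Adjusted p over all fits lay between 0.0306 and 1.00.

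Fcgr2b (ENSMUSG00000026656) encodes the inhibitory receptor for immunoglobulin G, with which sinusoidal endothelium takes up small immune complexes, and lies on chromosome 1 from 170786186 to 170804177. Its level was 65.7, 58.5 and 56.0 CPM in the females and 57.7, 54.8 and 50.9 CPM in the males. The sexes overlapped, and the log2 fold change was -0.14 with a standard error of 0.11 and an adjusted p of 0.737 in edgeR's quasi-likelihood test. Without female replicate 1 this estimate was -0.06. Fcgr3 resembles it closely in the extracellular part, and reads from there could be placed on either gene. Fcgr3 itself had a log2 fold change of 0.15 with a standard error of 0.14 and an adjusted p of 0.758 in the same edgeR test.

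Lyve1 (ENSMUSG00000030787) encodes a hyaluronan receptor of lymphatic endothelium, of sinusoids in some organs and of some macrophages, and lies on chromosome 7 from 110448585 to 110462460. It had the lowest level of the 10, with 1.51, 0.681 and 1.43 CPM in the females and 1.52, 1.91 and 1.75 CPM in the males, from between 36 and 95 counts a library. Every male library lay above every female library, but male replicate 1 exceeded female replicate 1 only in the third digit. Its estimated change was 0.51 on the log2 scale with a standard error of 0.37 and an adjusted p of 0.699 in edgeR's quasi-likelihood test, so a difference was not detectable beyond the spread of these libraries. Without female replicate 2 the estimate was 0.23, and the range with single libraries left out was 0.23 to 0.72.

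**Figure D3:**
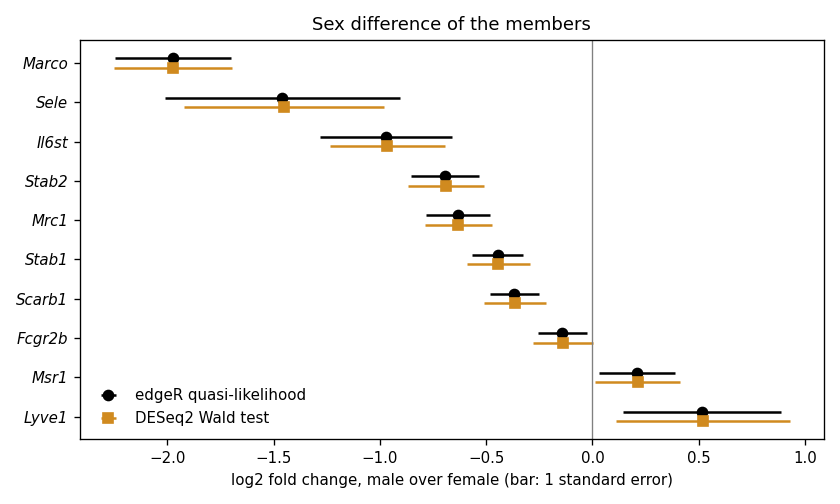
Log2 fold change of male over female for each receptor from edgeR (circles) and DESeq2 (squares), with 1 standard error as the bar and 0 as the grey line. Both tools place 8 receptors below 0, from -1.97 for Marco to -0.14 for Fcgr2b, and Msr1 and Lyve1 above it.

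The 10 receptors did not share a single pattern over the libraries. In female replicate 2, Il6st was at 47.0% and Sele at 33.0% of the mean of the other females, where the summed endothelial markers were at 65.0% and the 6 summed stromal markers at 48.4%. In the same library Stab1 was at 93.2%, Stab2 at 100.4%, Mrc1 at 91.0% and Scarb1 at 97.8%, and the summed macrophage markers at 109.8%. Lyve1, with 36 counts there, was at 46.4%. Il6st, Sele and Lyve1 thus dipped in this library, as the endothelial and stromal sums did, while Stab1, Stab2, Mrc1 and Scarb1 stayed within 10% of the other females. In male replicate 2 this division was less clear, as Mrc1 and Stab2 fell too. Stab1 was at 92.3%, Scarb1 at 82.7%, Mrc1 at 74.1% and Stab2 at 68.8% of the other males there. Il6st at 59.7% and Sele at 38.0% lay below all of these, while Lyve1 was at 116.8%. The macrophage sum was at 81.6%, the endothelial sum at 72.9% and the stromal sum at 58.2%. In male replicate 3, Sele was at 316% and Il6st at 148% of the mean of the other males, with the stromal sum at 161% and the endothelial sum at 126%. Msr1 was at 137%, Stab2 at 132%, Stab1 at 119%, Mrc1 at 113% and Scarb1 at 112% there, with the macrophage sum at 129%, so the receptors were less clearly divided in this library than in female replicate 2. Marco was at 108% of the other females in female replicate 2 and at 96.3% of the other males in male replicate 3.

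**Figure D4:**
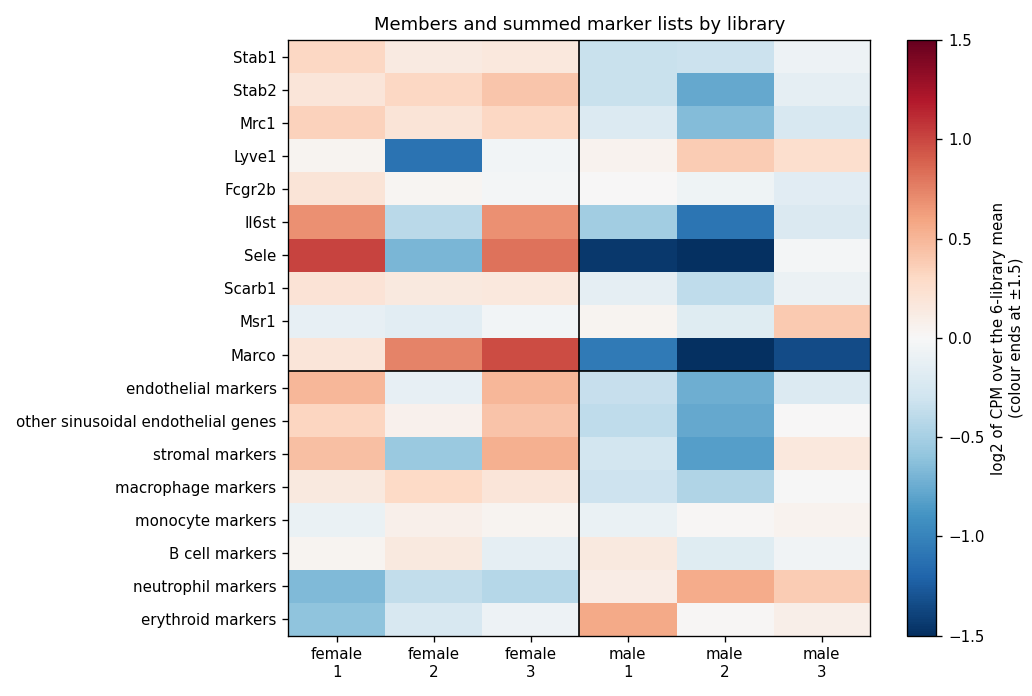
Log2 of CPM over the mean of the 6 libraries for each receptor (upper block) and for summed markers of cell types (lower block), from blue (below the mean) to red (above), with colours ending at ±1.5. Il6st and Sele share the pale or blue field of female replicate 2 with the endothelial and stromal sums, while Stab1, Stab2, Mrc1 and Scarb1 are red in all females and blue in all males.

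The same contrast appears in the genes whose levels followed each receptor most closely, by Pearson's r of log2(CPM + 0.5) over the 6 libraries among protein-coding genes of at least 1 CPM. These r values include the difference between the sexes, rest on 6 points that share their libraries and carry no test. Il6st was followed by Ptprb, an endothelial receptor phosphatase, with an r of 0.998, and then by Sp7 with 0.994, while Sele was followed by Adamts5 with 0.999 and Efemp2 with 0.995. Scarb1 had an r of 0.995 with Adgre1, the macrophage surface antigen F4/80, and Stab2 of 0.996 with Slc11a1, a metal transporter of macrophage phagosomes, and of 0.995 with Cd209g, a C-type lectin. The nearest genes were Slc27a6 for Stab1 (r 0.993), Ext2 for Mrc1 (0.995), Dnaja3 for Marco (0.998), Pofut1 for Fcgr2b (0.992), Umad1 for Msr1 (0.988) and Elovl7 for Lyve1 (0.975). Among the receptors, the closest pairs were Mrc1 with Scarb1 at 0.991 and Il6st with Sele at 0.970, followed by Stab2 with Scarb1 at 0.966 and with Mrc1 at 0.957.

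The summed endothelial markers and the summed macrophage markers were both lower in every male than in every female. Of the 15 endothelial markers, all 15 had a lower estimate in males, with a median log2 fold change of -1.12, and 11 had an unadjusted p under 0.05 in edgeR's test. Of the 12 macrophage markers, 11 had a lower estimate and an unadjusted p under 0.05, with a median of -0.42. In edgeR's test 0 genes of either list passed the adjusted threshold, while DESeq2 called 7 endothelial and 2 macrophage markers, all lower. The male libraries lay wholly below the female ones for 4 of the 15 endothelial markers and overlapped them for the other 11, and for the macrophage markers these numbers were 7 and 5. Of all genes tested, 4.76% were lower in males at that unadjusted p and 7.29% had every male lower. DESeq2 called 0.771% of the genes with an adjusted p lower. Pecam1, the endothelial and leukocyte adhesion molecule CD31, overlapped, with 101, 93.1 and 82.6 CPM in the females and 90.6, 76.6 and 68.5 CPM in the males. Eng, the endothelial co-receptor endoglin, had 53.3, 31.0 and 53.7 CPM in the females and 20.7, 11.7 and 26.1 CPM in the males, with no overlap. Csf1r, the macrophage growth factor receptor, had 280.1 ± 23.4 CPM (SD, n = 3) and 195 ± 23.0 CPM (SD, n = 3). The part of either cell type in the receptors' difference was not tested, and the values within each library are given next.

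**Figure D5:**
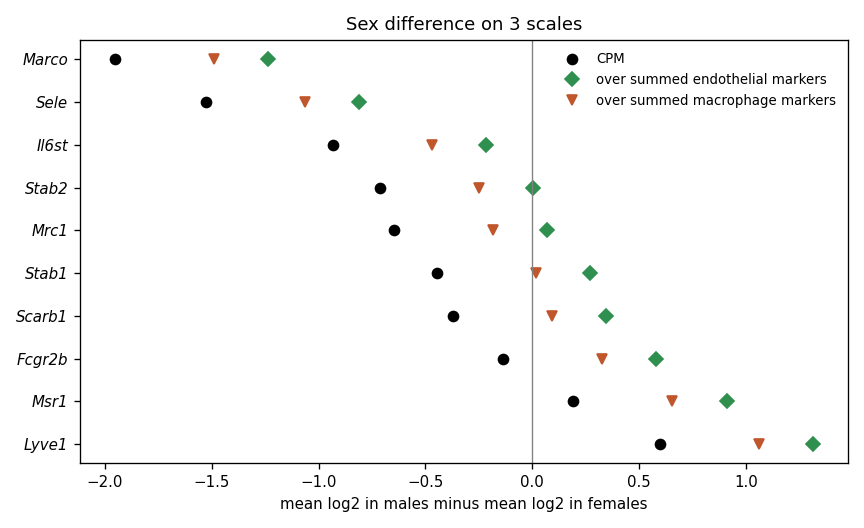
Male minus female difference of the mean log2 level of each receptor on 3 scales: CPM (circles), relative to the summed endothelial markers of the same library (diamonds) and relative to the summed macrophage markers (triangles), with 0 as the grey line. Marco stays left of 0 on all 3 scales and Lyve1 and Msr1 right of it, while Stab2 and Mrc1 lie nearest 0 on the endothelial scale (0.00 and 0.07) and Stab1 and Scarb1 on the macrophage scale (0.02 and 0.09).

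Divided by the summed endothelial markers of the same library, the 10 receptors together were higher in males by 0.12 on the log2 scale, with overlapping libraries. Divided by the summed macrophage markers, they differed by -0.13, again with overlap. Mrc1 makes up most of these sums, and without it the differences were 0.19 and -0.07. Marco was lower in every male on both scales, by -1.24 relative to the endothelial sum and -1.49 relative to the macrophage sum. Msr1 was higher in every male on both, by 0.91 and 0.66, and so was Lyve1, by 1.31 and 1.06. Stab2 was lower in every male relative to the macrophage sum, by -0.25, and overlapped relative to the endothelial sum, at 0.00. For Stab1, Mrc1, Scarb1, Il6st, Sele and Fcgr2b the sexes overlapped on both scales. These values depend on the genes in the denominator. Relative to Adgre1 alone, as a single macrophage gene, Mrc1 was lower in every male, by -0.21. Relative to Cdh5 alone, the gene of VE-cadherin, Stab2 differed by 0.49 and Mrc1 by 0.55 with overlapping libraries, Il6st changed sign from -0.22 to 0.26 with every male higher, and Marco, at -0.75, overlapped between the sexes. With 3 libraries against 3, these ratios are given as values without a test.

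Most other genes of sinusoidal endothelium also had lower estimates in males. Of 9 such genes, 8 were tested, 7 had a lower estimate in males and 6 an unadjusted p under 0.05, which 4.76% of all genes tested had in that direction, with a median log2 fold change of -1.16. The sexes overlapped for 5 of the 8, among them Flt4, Plvap and Tfpi, with log2 fold changes of -1.44, -1.13 and -1.18 and adjusted p of 0.339, 0.419 and 0.334 with DESeq2. Gata4, the factor of liver sinusoids, had 0 counts in all 6 libraries, under the floor of 3 counts. Gpr182, an atypical chemokine receptor of sinusoids, had 7.80 ± 2.86 CPM (SD, n = 3) in females and 2.49 ± 1.47 CPM (SD, n = 3) in males, an estimate of -1.65 on the log2 scale with a standard error of 0.44 and an adjusted p of 0.244 with edgeR and 0.00367 with DESeq2. Dnase1l3, a secreted nuclease of phagocytes and sinusoids, had a log2 fold change of -0.70 with a standard error of 0.17 and an adjusted p of 0.198 with edgeR and 0.0178 with DESeq2.

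Among 14 other scavenger receptors, 11 had a lower estimate in males, with a median of -0.45, 5 of them at an unadjusted p under 0.05 in edgeR's test, and 0 passed after adjustment in edgeR or DESeq2. Cd163, the haemoglobin receptor of macrophages, had 327 ± 49.0 CPM (SD, n = 3) in females and 210.0 ± 62.9 CPM (SD, n = 3) in males. Cd36, the fatty acid and oxidised lipoprotein receptor, had 53.5 ± 11.2 CPM (SD, n = 3) and 35.6 ± 7.13 CPM (SD, n = 3). Lrp1, the endocytic receptor of many ligands, had 236 ± 23.7 CPM (SD, n = 3) and 165 ± 36.3 CPM (SD, n = 3), and Scarf1, an endothelial receptor of modified lipoproteins, 6.36 ± 2.38 CPM (SD, n = 3) and 3.35 ± 0.398 CPM (SD, n = 3). All 4 were lower in every male. Of the 3 with a higher estimate in males, Scara5 and Olr1 had an unadjusted p under 0.05, with log2 fold changes of 1.00 and 0.61. Of all 19480 genes tested, 928 were lower and 980 higher in males at that level.

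The partners of the single receptors were grouped by role, and their counts at an unadjusted p under 0.05 stand beside the same 928 and 980 of 19480 genes. Of 9 genes of the mannose receptor family and of Fc receptors, 6 had a lower estimate in males (median -0.09), 2 of them, Fcgr1 and the transport receptor Fcgrt, at an unadjusted p under 0.05 in edgeR's test. Of 8 tested genes of hyaluronan binding and turnover, 5 had a lower estimate (median -0.01). Cd44, the widespread hyaluronan receptor of leukocytes, was higher in every male, with 151 ± 6.45 CPM (SD, n = 3) in females and 188 ± 8.71 CPM (SD, n = 3) in males and an estimate of 0.32 on the log2 scale with a standard error of 0.11 and an adjusted p of 0.379 with edgeR. Among 8 genes of lipoprotein cholesterol handling, 7 had a lower estimate (median -0.28), and 3 of them, Abca1, Abcg1 and the Scarb1 adaptor Pdzk1, an unadjusted p under 0.05. Of 10 tested selectins, selectin ligands and adhesion molecules, 6 had a lower estimate (median -0.06), Selp, Icam1 and Vcam1 at an unadjusted p under 0.05, and Selplg was higher at that level. Their sum was lower in every male, between 1660 and 1868 CPM against between 1948 and 2091 CPM in females. Vcam1 alone had between 768 and 994 CPM in males and between 1039 and 1263 CPM in females, and without it the sums overlapped. P-selectin, Selp, had 10.7, 3.27 and 7.97 CPM in the females and 3.53, 2.80 and 3.82 CPM in the males, low in female replicate 2 like Sele.

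Around gp130, the signal transducer encoded by Il6st, the 15 tested ligands, partner receptors and signalling genes had a median log2 fold change of 0.04, with 7 lower and 8 higher estimates in males. Socs3, the feedback inhibitor that gp130 signalling induces, was opposite in direction to Il6st. It had 10.1, 8.48 and 9.65 CPM in female replicates 1, 2 and 3 and 15.6, 20.5 and 14.9 CPM in male replicates 1, 2 and 3. Every male library lay above every female library. Socs3 had a log2 fold change of 0.85 with a standard error of 0.17 and an adjusted p of 0.115 with edgeR and 0.00135 with DESeq2. Osm, the gene of the gp130 ligand oncostatin M, was also higher in every male, with 10.4, 24.1 and 10.3 CPM against 9.51, 8.61 and 6.97 CPM in the females. Stat3 and Jak1, the transcription factor and a kinase of the pathway, overlapped between the sexes, with log2 fold changes of 0.10 and -0.12.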

How the data were processed

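For each of the 6 libraries of BEC RNA the authors deposited raw read counts per gene, neither normalized nor pooled. The study's methods give STAR on GRCm39 and featureCounts, whereas the submitters' processing notes name TopHat2 2.0.11, featureCounts and the builds NCBIM37 and mm9, and the sources also differ on kit, instrument and read length. Strandedness of the counting is not given in the sources used here. GENCODE M39 matched 31073 of 37991 identifiers, and coordinates and exon lengths are from it.

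Males were compared with females in edgeR 4.0.16 (R 4.3.3), with TMM, filterByExpr by sex, a robust quasi-likelihood test and p-values adjusted by Benjamini-Hochberg over 19480 genes, whereas the study's methods used DESeq2, an alternative here (version 1.42.0). The edgeR fit was tested on simulated data. Standard errors are the log2 fold change over the root of F. Depth was between 47678806 and 58325745 counts, and the floor of 3 counts covers counting error only, as the reads carry no molecular identifiers.

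The receptors and the 16 other gene lists were chosen with earlier results of these data known. From each list, the 2 genes of highest CPM, the 2 of smallest p and all called in the main or blocked fit could be named, with the 3 genes nearest in pattern to each receptor, and Emcn, Icam1, Fcgr3, Scara5, Olr1 and Gata4 were named after their values were seen. Promoter sequences are RefSeq's on GRCm38.p6. Alternatives were other normalizations, filters, DESeq2, the replicate number as a block, other denominators and each library left out.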

Additional observations from a re-analysis of the deposited data

How the results depend on the processing

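The direction of all 10 receptors was kept in all 13 alternative fits. As reported above, edgeR's test called 0 of the 10 receptors, 7 having an unadjusted p under 0.05, and 8 genes in all. The numbers of receptors and of genes called were 1 and 14 with total counts alone, 1 and 98 without a filter on low counts (Marco in both) and 4 and 359 with DESeq2's Wald test. With each library left out, edgeR called between 0 and 2 receptors and between 5 and 96 genes, the highest numbers without male replicate 3. The receptors over the endothelial sum differed by 0.04 to 0.27 on the log2 scale with each library left out and by 0.60 with Cdh5 alone as the denominator, and over the macrophage sum by -0.23 to -0.07. The causes were not tested. Depth limits Lyve1, with 36 counts in its lowest library, Sele, with 49, and Marco, with 88.

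With the replicate number as a block, edgeR called 5 receptors, Stab2, Mrc1, Il6st, Sele and Marco, and 428 genes. Same-numbered libraries deviated from the means of their sex with correlations across genes of 0.194, 0.0402 and 0.298 for replicates 1, 2 and 3. Every female library, and male replicates 1 and 3, correlated best with their own number. For female replicate 2 the margin was small, 0.0402 against 0.0373 with male replicate 1. Male replicate 2 correlated best with female replicate 1 (0.131), so not every library was closest to its own number. The labels do not say that the numbers pair the libraries, so the main fit has no block, and a pairing remains possible.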

Other observations

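The summed markers of stromal cells, monocytes, dendritic cells and B cells overlapped between the sexes. Of 6 stromal markers, all 6 had a lower estimate in males, and their sum lay between 1342 and 2844 CPM in females and between 1111 and 2196 CPM in males. Adiponectin, Adipoq, had 147, 76.5 and 162 CPM in female replicates 1, 2 and 3 and 39.5, 22.1 and 58.0 CPM in male replicates 1, 2 and 3, lower in every male (log2 fold change -1.69, standard error 0.37, adjusted p = 0.183 with edgeR and 0.0284 with DESeq2). The 5 monocyte markers summed to between 577 and 652 CPM in females and between 578 and 641 CPM in males, the 6 dendritic cell markers to between 74.8 and 97.1 CPM and between 82.0 and 95.6 CPM, and the 7 B cell markers to between 4567 and 5571 CPM and between 4434 and 5589 CPM. Of 4 lymphatic endothelial markers, 3 were matched and 2 tested, and both overlapped between the sexes. Among the neutrophil markers, 11 of 12 had a higher estimate in males (median log2 fold change 0.67), and all 7 erythroid markers had a higher estimate (median 0.50).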
